A study of Mus musculus with 7 samples.

Results

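The genes described here are 33 cell cycle genes, chosen by name as members of the S phase (12 genes) and of G2 and mitosis (21 genes), out of 34947 names on a mouse expression array. They were followed across 7 populations of mouse cells from a study of where the muscle-forming cells of the dermis come from. Each population was read on 1 array. The scanner software marks each spot that is well above background, and probes so marked on 3 or more arrays were used, which left 32 of the 33 members among 19761 genes tested. The exception was Aurkb, an aurora kinase of the chromosomal passenger complex, whose probe was marked on 0 of the 7 arrays. Of the 32 members, 31 were well above background on all 7 arrays and Cenpf on 5.

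A population is given by its line and its Sdc4 fraction. Sdc4 encodes syndecan-4, a cell surface proteoglycan used to mark satellite cells, which are the stem cells of muscle. Cspg4+ cells, with no Sdc4 fraction in the labels, came from mice carrying a Cspg4-cre transgene, B6,FVB-Tg(Cspg4-cre)1Akik/J (Cspg4 encodes NG2, a proteoglycan found on pericytes). The 3 Sdc4+ populations were Myf5SOR+ cells of a line with Cre at the Myf5 locus, B6.129S4-Myf5tm3(cre)Sor/J, cells of outbred Crl:CD1(ICR) mice, and Cspg4- cells of the Cspg4-cre line. The 3 Sdc4- populations were B195AP+ cells of B195AP-Cre mice (no promoter for this Cre is given), CD1 cells, and Cspg4- cells of the Cspg4-cre line. The labels trace cells by lineage, give 8 to 10 animals per phenotype and 10 to 200 ng of RNA, and say neither how the cells were sorted nor whether they had been cultured. CD1 and the Cspg4-cre line alone were profiled in both fractions. Because 1 array stands for a population and the arrays of a fraction come from different lines, SDs and p-values below measure the spread between these arrays. They hold no spread between repeat samples of a population.

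A dividing cell copies its DNA in S phase and separates the copies in mitosis, and the genes for these steps are switched on in waves. E2F factors drive the first wave, which includes the MCM helicase that opens the DNA, the sliding clamp PCNA and the enzymes that make deoxynucleotides. The MuvB complex with B-MYB and FOXM1 drives the second, which includes cyclin B, its kinase CDK1 and the motors and checkpoint proteins of the spindle. In resting cells the DREAM complex holds both sets silent, at E2F sites and at an element called CHR (cell cycle genes homology region), which often lies a short way from CCAAT boxes bound by NF-Y. Satellite cells of resting muscle are mostly out of the cycle, and muscle precursors leave it for good when they fuse into fibres.

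These promoter elements are shown for 6 members, 3 of each class, because S-phase and mitotic members held different ones. The stretches run from 160 bases before to 40 bases after the RefSeq transcription start (build GRCm38.p6), 5′ to 3′ on the strand of the gene. Capitals mark any of 3 kinds of match on either strand: the CHR core TTTGAA, the CCAAT box CCAAT, and the E2F sites TTTCCCGC, TTTGGCGC, TTTCGCGC and TTTGCCGC.
Mcm5 (chr8:75109349-75109548, plus strand): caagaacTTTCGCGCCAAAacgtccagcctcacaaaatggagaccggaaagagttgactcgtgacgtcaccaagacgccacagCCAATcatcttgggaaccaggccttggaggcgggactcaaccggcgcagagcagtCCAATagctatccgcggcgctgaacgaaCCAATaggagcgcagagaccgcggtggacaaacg
Mcm6 (chr1:128359666-128359865, minus strand): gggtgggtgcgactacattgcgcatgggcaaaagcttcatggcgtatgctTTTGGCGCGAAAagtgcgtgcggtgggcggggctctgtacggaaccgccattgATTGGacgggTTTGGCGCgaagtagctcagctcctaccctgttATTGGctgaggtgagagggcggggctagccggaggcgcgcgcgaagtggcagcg
Cdc6 (chr11:98907991-98908190, plus strand): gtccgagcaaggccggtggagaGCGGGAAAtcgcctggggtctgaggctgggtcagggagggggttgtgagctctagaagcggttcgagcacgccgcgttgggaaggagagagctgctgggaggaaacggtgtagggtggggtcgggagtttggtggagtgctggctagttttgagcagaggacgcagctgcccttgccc
Ccnb2 (chr9:70421515-70421714, minus strand): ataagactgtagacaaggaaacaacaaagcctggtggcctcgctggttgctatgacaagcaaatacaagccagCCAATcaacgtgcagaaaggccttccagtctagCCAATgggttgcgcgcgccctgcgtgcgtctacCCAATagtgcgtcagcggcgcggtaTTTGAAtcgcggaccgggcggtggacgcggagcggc
Cdk1 (chr10:69352873-69353072, minus strand): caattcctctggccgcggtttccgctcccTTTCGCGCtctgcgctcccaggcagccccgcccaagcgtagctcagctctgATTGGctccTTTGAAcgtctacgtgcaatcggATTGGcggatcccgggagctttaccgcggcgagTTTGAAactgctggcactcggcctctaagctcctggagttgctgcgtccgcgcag
Cdc20 (chr4:118437304-118437503, minus strand): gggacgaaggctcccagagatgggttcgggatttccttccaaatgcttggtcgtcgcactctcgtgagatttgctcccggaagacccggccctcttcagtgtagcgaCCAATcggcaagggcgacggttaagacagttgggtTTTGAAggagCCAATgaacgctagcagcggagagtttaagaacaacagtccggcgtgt

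RefSeq windows of 300 bases (250 before the start to 50 after it) were at hand for 27 members, 11 of the S phase with 13 windows and 16 mitotic with 1 window each. An E2F site stood in 6 of the 13 S-phase windows (46.2%) and in 1 of the 16 mitotic windows (6.25%, Cdk1), against 2.26% of all 32851 windows. Mcm7 and Uhrf1 have 2 windows each and held an E2F site in 1 of them. The CHR core stood in 12 of the 16 mitotic windows and in 1 of the 13 S-phase windows (7.69%, Mcm2), against 17.9% of all windows. All 12 mitotic windows with a CHR core also held a CCAAT box, a pairing found in 6.95% of all windows. A CCAAT box stood in 14 of the 16 mitotic and 10 of the 13 S-phase windows (87.5% and 76.9%), against 37.4% of all windows. Matches can overlap: the paired E2F matches of Mcm5 and of Mcm6 share 4 bases. E2f1, Tyms, Birc5 and Nusap1 held no match to these letters in this window. A match is a string of letters in a window and not a measured binding site.

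Facts of the 7 arrays that touch the values are these. All lay on 1 slide read in 1 scan, the 3 Sdc4+ arrays in slide row 1 and the other 4 in row 2, so slide row and Sdc4 fraction cannot be told apart. The 75th percentile of the signal, to which each array was scaled, was 242 and 212 on the CD1 arrays, against 129 and 178 on the Cspg4- arrays (Sdc4+ and Sdc4-). It was 130 on the Myf5SOR+, 170 on the B195AP+ and 178 on the Cspg4+ array. Repeat spots of 1 probe spread most on the B195AP+ array (median SD 0.151, against 0.063 to 0.082 on the others). That array has a streaked region of 200 spot rows by 130 spot columns, and 13 of the 32 members have a spot in it. The 5 of the S phase are Mcm2, Pcna, Tyms, Cdc6 and Uhrf1. The 8 mitotic members are Mki67, Top2a, Ccna2, Bub1 (5 of its 10 spots), Plk1, Kif11, Kif20a and Tpx2. Of the 10 markers of satellite cells and muscle progenitors, Pax7, Pax3 and Myf5 were marked as above background on 0 of the 7 arrays, Myod1 on 1, Myog, Des and Chrnd on 5, and Cdh15, Cspg4 and Sdc4 on all 7. The 10 fibroblast markers read were so marked on all 7. In log2 units relative to that percentile, Sdc4 itself was at 3.79, 6.35 and 6.28 on the Myf5SOR+, CD1 and Cspg4- arrays labelled Sdc4+, against 1.88 (a spot in the streaked region), 5.27 and 5.10 on the B195AP+, CD1 and Cspg4- arrays labelled Sdc4-. It followed the label within CD1 and within the Cspg4-cre line, while the Myf5SOR+ array, labelled Sdc4+, lay below 2 of the 3 arrays labelled Sdc4-. The summed level of 22 sarcomere genes was 4.30 to 5.98 times the array's 75th percentile on the Sdc4+ arrays, against 17.2 to 137 on the Sdc4- arrays, and 7.92 on the Cspg4+ array.

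**Figure D1:**
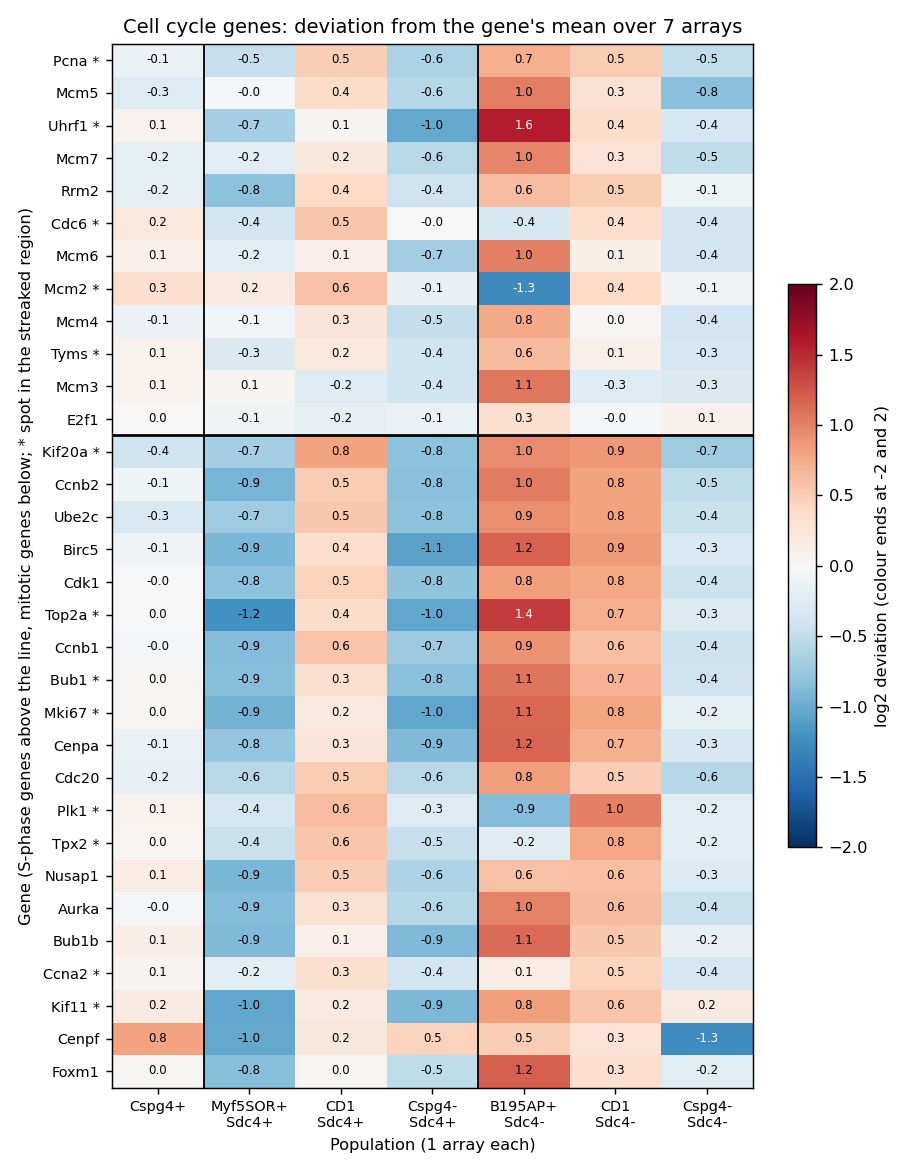
Deviation of each of the 32 tested members (rows) from its own mean over the 7 arrays (columns, 1 array per population), in log2 units, with S-phase genes above the thick line and mitotic genes below it; an asterisk marks a gene with a spot in the streaked region of the B195AP+ array. The 2 CD1 columns (except Mcm3 and E2f1) and the B195AP+ column are mostly red and the Myf5SOR+ and Cspg4- columns mostly blue; Cenpf was not well above background on the Myf5SOR+ and Cspg4- Sdc4- arrays.

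Levels of all members are given in log2 units relative to the 75th percentile of the array. They compare arrays for 1 probe and not genes with each other. In each member's values below, the Sdc4+ arrays stand in the order Myf5SOR+, CD1, Cspg4- and the Sdc4- arrays in the order B195AP+, CD1, Cspg4-. In bulk RNA, fewer cycling cells and less RNA of these genes per cell cannot be told apart.

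Most helicase genes and the clamp gene were higher in CD1 than in Cspg4- cells. Pcna (probe at chromosome 2, 132075022 to 132075054, mm9), the clamp that holds polymerases on DNA, was at 4.32, 5.28 and 4.15 on the Sdc4+ arrays, against 5.51, 5.29 and 4.29 on the Sdc4- arrays, and at 4.66 on the Cspg4+ array. Mcm5 (chromosome 8, 77651350 to 77651410), a subunit of the replicative helicase, was at 2.58, 2.98 and 2.05 on the Sdc4+ arrays, against 3.63, 2.92 and 1.78 on the Sdc4- arrays, and at 2.36 on the Cspg4+ array. In both genes each CD1 array stood above each Cspg4- array and the Sdc4 groups overlapped. Mcm6 (chromosome 1, 130228178 to 130228237) was at 4.82, 5.15 and 4.36 on the Sdc4+ arrays, against 6.07, 5.17 and 4.66 on the Sdc4- arrays, and at 5.15 on the Cspg4+ array. Mcm4 (chromosome 16, 15624372 to 15624431) was at 3.98, 4.29 and 3.55 on the Sdc4+ arrays, against 4.79, 4.05 and 3.64 on the Sdc4- arrays, and at 3.90 on the Cspg4+ array. Both had their highest value on the B195AP+ array and their lowest on the Cspg4- Sdc4+ array. Mcm2 (chromosome 6, 88833619 to 88833678) went another way on 1 array: it was at 1.09, 1.49 and 0.77 on the Sdc4+ arrays, against -0.35, 1.31 and 0.85 on the Sdc4- arrays, and at 1.25 on the Cspg4+ array. Its value on the B195AP+ array, the lowest of the 7, came from a spot in the streaked region, as did the highest value of Pcna. Mcm7 was highest on the B195AP+ array and lowest on the Cspg4- Sdc4+ array, spanning 1.54 log2 units.

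Genes of nucleotide supply, licensing and S-phase control gave a mixed picture. Rrm2 (chromosome 12, 25398824 to 25398883), the regulated subunit of ribonucleotide reductase, was at 3.25, 4.48 and 3.65 on the Sdc4+ arrays, against 4.68, 4.58 and 3.97 on the Sdc4- arrays, and at 3.89 on the Cspg4+ array. Tyms, thymidylate synthase, spanned 1.04 log2 units with the same array on top. Uhrf1 (chromosome 17, 56462770 to 56462829), which keeps DNA methylation through replication, was at 2.62, 3.36 and 2.29 on the Sdc4+ arrays, against 4.88, 3.67 and 2.95 on the Sdc4- arrays, and at 3.37 on the Cspg4+ array. Rrm2 was lowest on the Myf5SOR+ array, Tyms and Uhrf1 on the Cspg4- Sdc4+ array. The spots of Tyms and Uhrf1 lie in the streaked region of the B195AP+ array. Cdc6 (chromosome 11, 98782986 to 98783045), a loader of the helicase, was at -1.87, -0.95 and -1.51 on the Sdc4+ arrays, against -1.85, -1.15 and -1.88 on the Sdc4- arrays, and at -1.28 on the Cspg4+ array, with its spot also in the streaked region. E2f1 (chromosome 2, 154385798 to 154385857), an activator of the S-phase wave, was at 2.64, 2.55 and 2.59 on the Sdc4+ arrays, against 3.04, 2.68 and 2.81 on the Sdc4- arrays, and at 2.72 on the Cspg4+ array. E2f1 had the smallest range of the 12 S-phase members (0.49 log2 units, against a class median of 1.44). Of the 32 members only E2f1 had Sdc4 groups that did not overlap, by a narrow margin (2.64 against 2.68). It was lower on the Sdc4+ arrays, as were 9.27% of all genes with no overlap.

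Most mitotic regulators repeated the order of the arrays, with wider ranges. Cdk1 (chromosome 10, 68801072 to 68801131), the mitotic kinase, was at 0.39, 1.67 and 0.41 on the Sdc4+ arrays, against 2.04, 1.99 and 0.79 on the Sdc4- arrays, and at 1.20 on the Cspg4+ array. Ccnb1 (chromosome 13, 101548722 to 101548781), a cyclin that activates it, was at 2.07, 3.50 and 2.21 on the Sdc4+ arrays, against 3.83, 3.53 and 2.50 on the Sdc4- arrays, and at 2.89 on the Cspg4+ array. Ccnb2 (chromosome 9, 70255671 to 70255730) was at 2.88, 4.30 and 2.97 on the Sdc4+ arrays, against 4.84, 4.61 and 3.29 on the Sdc4- arrays, and at 3.72 on the Cspg4+ array. In these 3 genes the B195AP+ and both CD1 arrays stood above the Cspg4+ array, and the Cspg4+ array above the Myf5SOR+ and both Cspg4- arrays. Foxm1 (chromosome 6, 128324783 to 128324842), the transcription factor of this wave, was at -0.21, 0.66 and 0.12 on the Sdc4+ arrays, against 1.84, 0.98 and 0.42 on the Sdc4- arrays, and at 0.66 on the Cspg4+ array. Plk1 (chromosome 7, 129313220 to 129313279), a kinase of mitotic entry, was at 2.92, 3.90 and 3.02 on the Sdc4+ arrays, against 2.42, 4.28 and 3.06 on the Sdc4- arrays, and at 3.35 on the Cspg4+ array. Plk1 was lowest on the B195AP+ array, where its spot lies in the streaked region, and CD1 stood above Cspg4- in both fractions.

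Genes of the spindle and chromosomes mostly followed the same order. Mki67 (chromosome 7, 142881591 to 142881650), the coat of mitotic chromosomes and the usual marker of cycling cells, was at 2.78, 3.91 and 2.68 on the Sdc4+ arrays, against 4.86, 4.50 and 3.54 on the Sdc4- arrays, and at 3.74 on the Cspg4+ array. Top2a (chromosome 11, 98855522 to 98855581), which untangles sister chromatids, was at 0.25, 1.82 and 0.41 on the Sdc4+ arrays, against 2.86, 2.19 and 1.18 on the Sdc4- arrays, and at 1.47 on the Cspg4+ array. Birc5 (chromosome 11, 117716978 to 117717037), survivin of the chromosomal passenger complex, was at 3.83, 5.10 and 3.67 on the Sdc4+ arrays, against 5.92, 5.60 and 4.43 on the Sdc4- arrays, and at 4.68 on the Cspg4+ array. All 3 were lowest on the Myf5SOR+ or the Cspg4- Sdc4+ array, and in each the Sdc4 groups overlapped through the CD1 Sdc4+ and Cspg4- Sdc4- arrays. Kif20a, a kinesin of cell division, was at 1.16, 2.63 and 1.01 on the Sdc4+ arrays, against 2.78, 2.70 and 1.11 on the Sdc4- arrays, and at 1.42 on the Cspg4+ array. Its values fell in 2 sets, with both CD1 arrays and B195AP+ in the upper and the other 4 arrays in the lower. The spots of Mki67, Top2a and Kif20a, and of Kif11 below, lie in the streaked region of the B195AP+ array. Kif11 (chromosome 19, 37495755 to 37495814), the motor that pushes spindle poles apart, was at -2.13, -0.89 and -1.98 on the Sdc4+ arrays, against -0.25, -0.53 and -0.91 on the Sdc4- arrays, and at -0.93 on the Cspg4+ array. Cenpf (chromosome 1, 191464978 to 191465037), a kinetochore protein, lay near background: it was at -4.18, -2.94 and -2.70 on the Sdc4+ arrays, against -2.67, -2.87 and -4.42 on the Sdc4- arrays, and at -2.36 on the Cspg4+ array, its lowest value in each fraction being not well above background.

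Bub1, a kinase of the spindle checkpoint, was spotted 10 times on each array, which shows the spread between spots within an array. With outlier spots left out, 8 to 10 spots an array gave levels of -0.70, 0.48 and -0.68 on the Sdc4+ arrays, against 1.22, 0.85 and -0.26 on the Sdc4- arrays, and 0.18 on the Cspg4+ array, with an SD between spots of 0.065 to 0.165. The 7 levels therefore stood apart by more than the spread between spots, except those of the Myf5SOR+ and Cspg4- Sdc4+ arrays. Spots repeat the hybridisation and not the cells. Aurkb, not well above background anywhere, read -5.47, -4.22 and -4.99 on the Sdc4+ arrays, against -4.46, -4.58 and -4.72 on the Sdc4- arrays, and -5.70 on the Cspg4+ array, which gives it no order. The remaining mitotic members (Bub1b, a checkpoint kinase, Aurka, the spindle pole kinase, Cenpa, the centromeric histone, Ccna2, cyclin A, Cdc20, an activator of the anaphase-promoting complex, Ube2c, a ubiquitin-conjugating enzyme of that complex, and Tpx2 and Nusap1, which act on spindle microtubules) spanned 0.84 to 2.04 log2 units.

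**Figure D2:**
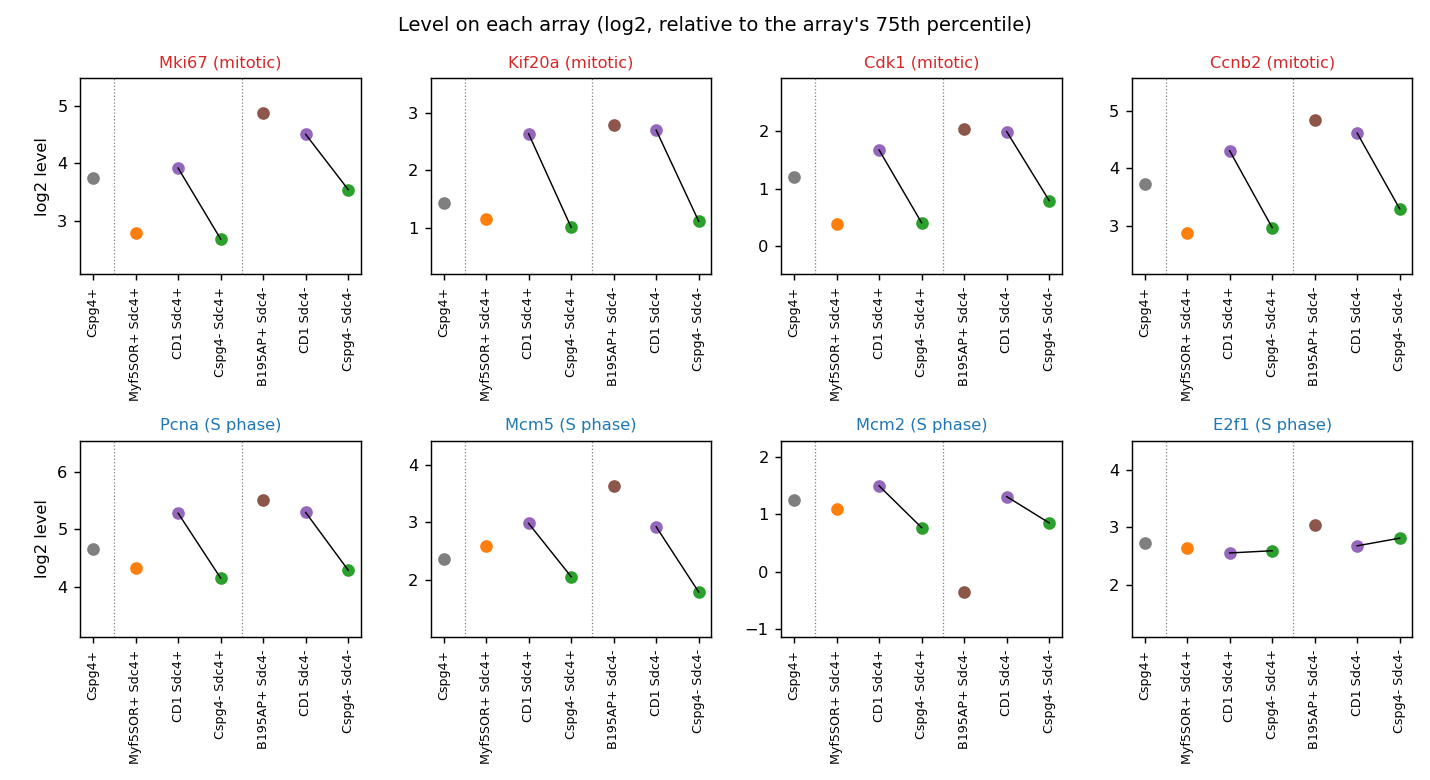
Level of 4 mitotic and 4 S-phase genes on each array (log2 relative to the array's 75th percentile, each panel spanning 3.4 log2 units), 1 point per population, with a line joining CD1 to Cspg4- within each Sdc4 fraction. The lines slope down for every gene shown except E2f1, and Mcm2 has its low point on the B195AP+ array, in the streaked region.

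By class, the 7 arrays ranked nearly alike for S-phase and mitotic members. The median deviation of the 20 mitotic members from their own means was 0.02 on the Cspg4+ array, -0.86, 0.36 and -0.81 on the Sdc4+ arrays, and 0.94, 0.71 and -0.34 on the Sdc4- arrays. For the 12 S-phase members it was 0.03 on the Cspg4+ array, -0.22, 0.24 and -0.45 on the Sdc4+ arrays, and 0.75, 0.30 and -0.37 on the Sdc4- arrays. Over all genes tested the same medians lay between -0.07 and 0.12. B195AP+ was highest and CD1 Sdc4- next in both classes, but for the 7 S-phase members with no spot in the streaked region CD1 Sdc4+ came next (0.22), ahead of CD1 Sdc4- (0.11). The lowest array was Myf5SOR+ for the mitotic and Cspg4- Sdc4+ for the S-phase members. Members moved more over the arrays than other genes did: the median range was 1.88 log2 units for mitotic and 1.44 for S-phase members, against 0.96 for all genes tested. The B195AP+ array held the highest value of 25 of the 32 members, against 30.3% of all genes, and of 17 of the 19 members with no spot in the streaked region. The lowest value stood on the Myf5SOR+ or Cspg4- Sdc4+ array for 25 of the 32 members, against 25.4% of all genes.

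**Figure D3:**
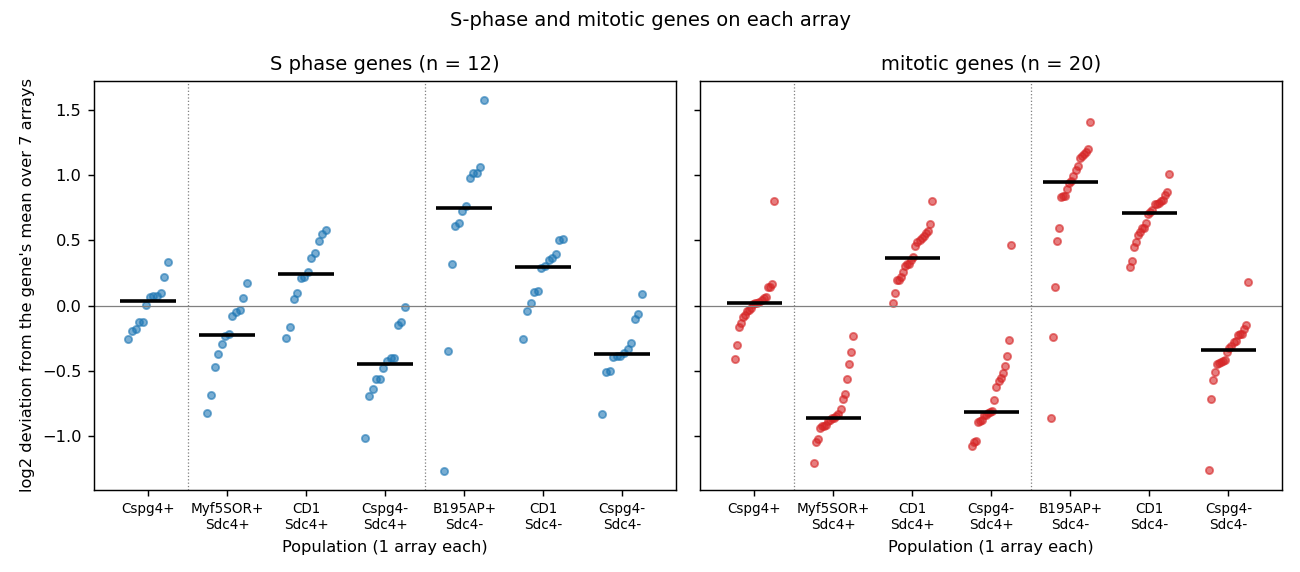
Deviation of each member from its mean over the 7 arrays (log2), 1 point per gene, sorted within an array, with a bar at the class median; 12 S-phase genes on the left and 20 mitotic genes on the right. The mitotic medians run over a wider span (-0.86 to 0.94) than the S-phase medians (-0.45 to 0.75).

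CD1 and the Cspg4-cre line were both profiled in both fractions, which lets the lines be compared within each. Mitotic members were higher in CD1 by a median of 1.13 in the Sdc4+ and 1.05 in the Sdc4- fraction, and S-phase members by 0.76 and 0.56, while the medians over all genes were -0.06 and -0.02. CD1 stood above Cspg4- in both fractions for 30 of the 32 members (11 of the S phase and 19 mitotic), against 28.8% of all genes. The exceptions were E2f1, which was lower by 0.04 and 0.13, and Cenpf, lower by 0.24 in the Sdc4+ fraction and at least 2.07-fold higher in the Sdc4- fraction, where the Cspg4- probe was at background. The difference was at least 1.5-fold in both fractions for 22 of the 32 members, against 4.76% of all genes. These were 17 of the 20 mitotic and 5 of the 12 S-phase members. By the mean of both fractions, Kif20a had the largest difference, 1.63 and 1.58 in the Sdc4+ and Sdc4- fractions, and Ccnb2 the next, 1.34 and 1.32. Pcna led the S-phase members with 1.13 and 1.00. Mcm3 had the smallest difference of a member that was higher (0.15 and 0.03).

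In a limma fit with line and fraction over these 4 arrays, 14 of 19761 genes passed an adjusted p of 0.05 (0.0708%) and 0 of the 32 members did. The limma adjusted p of members started at 0.0882 (Kif20a, log2 difference 1.61, SE 0.19). The next were Ccnb2 (1.33, SE 0.19, limma adjusted p = 0.120) and Ube2c (1.30, SE 0.19, limma adjusted p = 0.123). At an unadjusted p under 0.05, 28 of the 32 members were higher in CD1 (9 of the S phase and 19 mitotic), against 7.12% of all genes. The 4 others were Mcm3, Tyms, E2f1 and Cenpf. The medians were 0.65 for S-phase and 1.08 for mitotic members, against -0.04 for all genes. The B195AP+ array, which has the streaked region, is not in this fit. With the test confined to the 16656 genes well above background on all 7 arrays, 329 genes passed in limma (1.98%), and 6 of the 31 members among them, all mitotic: Kif20a (adjusted p = 0.0201), Ccnb2 (0.0360), Ube2c (0.0373), Birc5 (0.0411), Cdk1 (0.0418) and Bub1 (0.0482). Their differences ran from 1.14 to 1.61 log2 units. The fit of line and fraction leaves 1 residual degree of freedom before moderation, so the spread is borrowed from the other genes. That residual is how far the difference between the lines changed from 1 fraction to the other. The fractions of a line thus stand in for replicates, and the p-values hold no spread between separate samples of a line.

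Other values moved with the line. The 75th percentile of signal was higher on each CD1 array than on the Cspg4- array of its fraction, as given above. Both CD1 arrays lay in slide column 4, and the Cspg4- arrays in columns 3 (Sdc4+) and 2 (Sdc4-). Column 4 held only the CD1 arrays and cannot be told apart from that line. In the Sdc4- fraction all 18 sarcomere genes tested were higher in CD1, by a median of 2.06. In the Sdc4+ fraction 10 of the 18 were, and there 14 of the 22 listed were marked well above background on the CD1 array, against 9 on the Cspg4- array. By the mean of both fractions, the 10 fibroblast genes were all lower in CD1, with a median of -0.52. Within the Sdc4+ fraction 8 were lower and 2 higher, and within the Sdc4- fraction 10 were lower. Summed fibroblast levels were 645 and 830 times the 75th percentile on the CD1 arrays, against 1248 and 1061 on the Cspg4- arrays (Sdc4+ and Sdc4-). Summed myeloid levels were 40.4 and 40.6 on the CD1 arrays, against 57.7 and 53.6 on the Cspg4- arrays. Gene by gene that list had no common direction: of 6 tested, 3 were higher and 3 lower in CD1 (median -0.03, from -0.76 to 1.69). Of the 11 myeloid markers on the array Ptprc, Lyz2 and C1qa were at background on all 7 arrays, while Cd68, Csf1r, Itgam, Cd14 and Fcer1g were marked well above it on all 7. At background on all 7 were also 2 of the 11 keratinocyte markers (Krt1 and Dsg3) and 5 of the 9 endothelial markers (Tek, Tie1, Emcn, Cldn5 and Erg). Krt10, Trp63, Kdr and Pecam1 of these lists were marked on all 7, and over the 7 arrays the summed levels reached at most 7.92 for the keratinocyte and 19.7 for the endothelial list. The part of signal strength or of these cell types in the difference between the lines was not tested.

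The difference between lines was larger than that between fractions for 30 of the 32 members on these 4 arrays, against 56.6% of all genes. The exceptions were E2f1 and Cenpf.

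**Figure D4:**
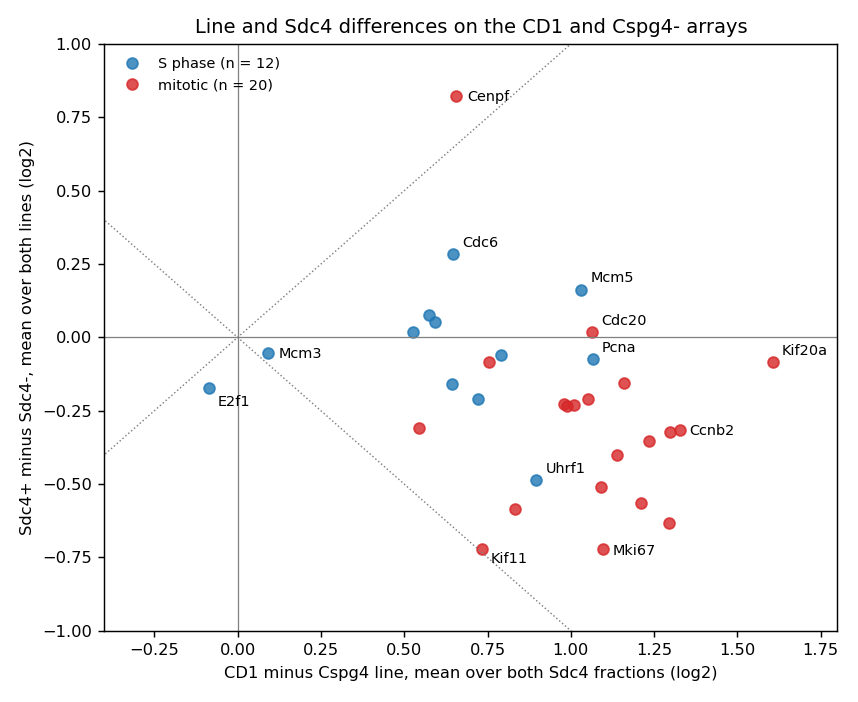
CD1 minus Cspg4 line (x axis, mean over both fractions) against Sdc4+ minus Sdc4- (y axis, mean over both lines) on the 4 CD1 and Cspg4- arrays, in log2 units, 1 point per member; dotted diagonals mark equal size. All members but E2f1 lie right of 0 and 30 of the 32 lie between the diagonals on the right; Cenpf, above them, was at background on the Cspg4- Sdc4- array.

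Between the Sdc4 fractions over all lines, most members had lower means on the Sdc4+ arrays, with overlapping values, and 0 passed the test. The median log2 difference (Sdc4+ minus Sdc4-) was -0.78 for the mitotic members, 18 of 20 of them lower, and -0.33 for the S-phase members, 10 of 12 lower, against -0.03 for all genes. In limma 0 of 19761 genes (0%) passed an adjusted p of 0.05, and 1813 had an unadjusted p under 0.05. At that unadjusted p 3 members were lower (Mki67, Bub1b and Kif11), against 5.37% of all genes. E2f1 alone was lower with no overlap, 1 of 32 members, against 9.27% of all genes, and 0 of 32 were higher with no overlap, against 7.09%. Of the mitotic members Kif11 had means of -1.67 ± 0.68 in Sdc4+ and -0.56 ± 0.33 in Sdc4- populations (3 arrays each, ± SD), a difference of -1.11 (SE 0.37, limma adjusted p = 0.495). Mki67, Top2a and Birc5 differed by -1.18, -1.25 and -1.12 (limma adjusted p = 0.532, 0.577 and 0.581). With the streaked region of the B195AP+ array left out, Mki67, Top2a and Kif11 differed by -0.90, -0.86 and -0.95. The probe used for each has 1 spot, inside the region, so this drops the whole B195AP+ value of the gene. These values therefore compare the fractions without that population and do not correct for the streak. Of the S-phase members, Uhrf1 differed by -1.08 (SE 0.53, limma adjusted p = 0.596), and by -0.55 without its B195AP+ value, from a spot in that region. The other Uhrf1 probe, outside the region, differed by -0.75 over all 6 arrays of the fractions. E2f1 had means of 2.60 ± 0.04 in Sdc4+ and 2.84 ± 0.18 in Sdc4- populations (3 arrays each, ± SD), a difference of -0.25 (SE 0.18, limma adjusted p = 0.710), or -0.15 without the B195AP+ array. The difference of Cenpf has no measured size, since 1 of its readings in each fraction was at background. Of the other members the difference was smallest for Plk1 and Ccna2 (0.03 and -0.18) among mitotic members, and for Cdc6 and Mcm4 (0.18 and -0.22) among S-phase members. The sign of Plk1, Cenpf, Cdc6, Mcm4 and Mcm5 turned under other settings. Without its B195AP+ value, from a spot in the streaked region, Plk1 differed by -0.39.

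The size of this difference depended on which lines were averaged. Within CD1 the mitotic median was -0.32 and within the Cspg4-cre line -0.34. The S-phase medians there were -0.00 and -0.10. With the Myf5SOR+ and B195AP+ arrays left out, which are alone in their lines, the medians over both lines were -0.31 for the mitotic and -0.06 for the S-phase members. Without the Myf5SOR+ array alone, whose Sdc4 level was low for its label, they were -0.57 and -0.29. Without the B195AP+ array alone they were -0.51 and -0.06, without the Cspg4- Sdc4- array -1.20 and -0.67, and without the CD1 Sdc4+ array -1.17 and -0.47. Of the 32 members, 24 were lower on the Sdc4+ array in both lines (18 mitotic and 6 of the S phase), against 31.5% of all genes. At least 1.5-fold lower were 1 member within CD1 (Mki67, by -0.59), against 8.31% of all genes, and 0 were higher by that much, against 6.61%. In the Cspg4-cre line there were 6 lower, against 11.3%, and 1 higher (Cenpf, at background on the Sdc4- array), against 10.7%. Those 6 were Kif11, Mki67, Top2a, Birc5, Bub1b and Uhrf1, and Kif11 differed most, by -1.07. The sarcomere list also moved with the fraction: of its 22 genes 8, 14 and 9 were marked well above background on the Sdc4+ arrays, against 18, 21 and 18 on the Sdc4- arrays, with the summed levels given above. Its part in the difference was not tested.

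The comparisons of single arrays that follow share arrays with each other and with those above, so they are not independent. The Myf5SOR+ cells had mitotic levels close to those of the Cspg4- Sdc4+ cells and below those of the CD1 Sdc4+ cells. Against CD1 Sdc4+, the mitotic median was -1.21 with 20 of 20 lower, and the S-phase median -0.42 with 10 of 12 lower. At least 1.5-fold lower were 23 of the 32 members, against 11.6% of all genes. Against Cspg4- Sdc4+ the mitotic median was -0.02, while 10 of 12 S-phase members were higher, by a class median of 0.33 (all genes 0.07). The 2 S-phase members that were lower were Rrm2 (-0.40) and Cdc6 (-0.36). Past 1.5-fold were 0 of 32 members upward, against 8.43% of all genes, and 1 downward, against 9.65%. That 1 was Cenpf, at background on the Myf5SOR+ array.

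By class medians, the B195AP+ cells stood above both other Sdc4- populations. Against CD1 Sdc4-, the median was 0.61 for the S-phase and 0.29 for the mitotic members (all genes 0.18), and 9 of 32 members were at least 1.5-fold higher, against 18.5% of all genes. The summed sarcomere level was 17.2 on the B195AP+ array, against 137 on the CD1 and 30.7 on the Cspg4- Sdc4- array, and its part was not tested. From CD1 Sdc4- cells, Uhrf1 and Mcm3 differed by 1.21 and 1.31, and Foxm1, the largest of the mitotic members, by 0.86. The Uhrf1 value came from a spot in the streaked region, and its other probe, outside it, was at -1.05, against -2.04. The other Mcm3 probe, with a spot in the region, went the other way (3.39 on the B195AP+ array, against 3.70). Against Cspg4- Sdc4-, the medians were 1.19 and 1.39 (all genes 0.14), and 26 of 32 members were at least 1.5-fold higher, against 19.2% of all genes. Of the 19 members with no spot in the streaked region all 19 were higher than in Cspg4- Sdc4- cells, against 11815 of 19454 genes. Members lower in B195AP+ by 1.5-fold were 4 of 32, against 15.1% of all genes, all with spots in that region: against CD1 Sdc4- cells Plk1 differed by -1.86, Mcm2 by -1.66, Tpx2 by -1.02 and Cdc6 by -0.70. The probes of Cdc6, Tpx2 and Ube2c disagreed in this comparison, so the drops of Cdc6 and Tpx2 depend on the probe. The other probe of Cdc6 was at -1.91 on the B195AP+ array and at -3.08 on the CD1 Sdc4- array. The other probe of Tpx2 was at -3.05 and -3.56 on these arrays. Both of these probes also have a spot in the region, and each was well above background on 4 arrays. For Ube2c, the probe in the region was at 1.19 on the B195AP+ array and at 3.64 on the CD1 Sdc4- array. The Ube2c probe outside it was at 3.63 on the B195AP+ array and at 3.49 on the CD1 Sdc4- array.

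The Cspg4+ cells lay in the middle of the populations for both classes. They are 1 array, so their test takes the spread of the other groups as theirs. Against the mean of the other 2 groups the medians were 0.04 for the S-phase and 0.02 for the mitotic members (all genes 0.04). In limma 0 of 19761 genes (0%) and 0 of 32 members passed, 1131 genes had an unadjusted p under 0.05, and the adjusted p of each member rounded to 1.00. Cenpf, at background on 2 of the other 6 arrays, has no measured difference here, and was at least 2.94-fold above the Cspg4- Sdc4- array. The largest differences upward of the others were Mcm2 (0.39) and Cdc6 (0.25), and downward Kif20a (-0.47), Ube2c (-0.36) and Mcm5 (-0.30). Within their own line the Cspg4+ cells were higher than Cspg4- Sdc4+ cells for 32 of 32 members, against 10975 of 19761 genes. The medians were 0.72 for mitotic and 0.42 for S-phase members (all genes 0.06). At least 1.5-fold higher were 13 of the 32 members, against 14.9% of all genes. Against Cspg4- Sdc4- cells 29 of 32 members were higher, against 12053 of 19761 genes. The medians were 0.30 for mitotic and 0.39 for S-phase members (all genes 0.07). At least 1.5-fold higher were 2 members (Cenpf, at background in the Cspg4- Sdc4- cells, and Cdc6), against 8.6% of all genes. Lower by that much were 0, against 6.2%.

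Members with several probes mostly gave the same direction in each. Of 44 member probes that passed, 42 read higher in CD1 than in Cspg4- cells in both fractions. Birc5, with 3 probes, differed between the lines by 1.25, 1.30 and 1.32, and the second probe of Mki67 by 0.87. In the Sdc4 contrast the second probes of Cdc6 and of Ube2c went the other way from the first (Cdc6 -0.31 and 0.18, Ube2c 0.17 and -0.76). The Ube2c probe with the positive value and both Cdc6 probes have a spot in the streaked region.

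Mcm3, another helicase subunit, was the member whose probes parted most between the lines. Its probes of 60 bases (chromosome 1, mm9) overlap by 43 bases and differ at 1 base in the overlap, written G14A, with the base of the AK088142 probe first and positions counted from 1 at its 5′ end. The 23 bases around it are shown with that base in capitals because the probes disagree on the difference between the lines.
Mcm3 probe for AK088142 (chr1:20793119-20793178): gctttctttgcGattagactagt
Mcm3 probe for NM_008563 (chr1:20793136-20793195): gctttctttgcAattagactagt
The AK088142 probe was at 3.58 and 3.70 on the CD1 arrays, against 2.16 and 2.24 on the Cspg4- arrays (Sdc4+ and Sdc4-), at 2.74 on the Myf5SOR+, 3.39 on the B195AP+ (a spot in the streaked region) and 2.66 on the Cspg4+ array. The NM_008563 probe, used in the tests as the brighter of the pair and with no spot in the streaked region, was at 2.91 and 2.90 on the CD1 arrays, against 2.75 and 2.87 on the Cspg4- arrays, at 3.21 on the Myf5SOR+, 4.21 on the B195AP+ and 3.22 on the Cspg4+ array. CD1 differed from the Cspg4-cre line by 1.44 with the AK088142 probe and by 0.09 with the NM_008563 probe. Whether the base that differs has a part in this was not tested.

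**Figure D5:**
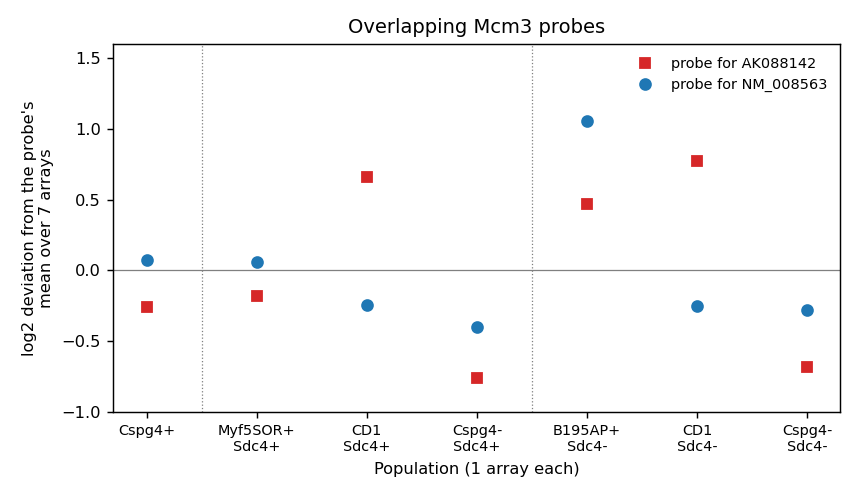
Deviation of the 2 overlapping Mcm3 probes from their own mean over the 7 arrays (log2), 1 point per probe and population. On the CD1 arrays the squares (AK088142) lie above 0 and the circles (NM_008563) below it, while on the Cspg4- arrays both lie below 0.

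Other genes of the cycle, from lists of the same pathways, were read beside the members, and 0 of them passed limma in the Sdc4 contrast or between the lines. Other replication genes had a median of 0.61 in CD1 minus Cspg4 line, with 33 of 36 higher, and of -0.50 in Sdc4+ minus Sdc4-, with 34 of 36 lower. Other mitotic genes had medians of 0.93, with 51 of 53 higher, and -0.78, with 52 of 53 lower. G1 cyclins and kinases, which act before the S phase, differed less, with medians of 0.17 and 0.12 over 10 genes. Among the replication genes Cdc7, a kinase that fires origins, Atad2, Lig1, a DNA ligase, and Prim1, a primase subunit, differed by -1.04, -1.15, -0.84 and -1.15 in Sdc4+ minus Sdc4- (limma adjusted p = 0.429 to 0.543). Of the mitotic genes Cep55, which acts in the cut between daughter cells, Kif22, Ndc80, a kinetochore protein, and Espl1, separase, differed by -0.93, -1.20, -1.31 and -1.12 (limma adjusted p = 0.429 to 0.529). Cdc7 and Cep55, like Atad2, were lower with no overlap between the Sdc4 groups, against 9.27% of all genes. They were named for their small p in this same contrast, so the lack of overlap is no separate result. Cdc7 and Cep55 had a difference between the lines near 0 or below it (-0.04 and -0.25). Cdc7 was at -3.60, -3.46 and -3.44 on the Sdc4+ arrays, against -2.11, -2.67 and -2.60 on the Sdc4- arrays, and was well above background on 5 of the 7. Its difference between the fractions, -1.04, was -0.25 with another background correction (normexp) and quantile scaling. In Sdc4+ minus Sdc4-, Cdk6, a G1 kinase, differed by 0.96, Skp2, which marks p27 for breakdown, by -0.97, and Ccnd2 and Myc by 0.35 and 0.40. Without the B195AP+ array Lig1 and Prim1 differed by -0.54 and -0.77, without the Cspg4- Sdc4+ array Myc differed by 0.23, and Ccnd2 differed by 0.22 without the Myf5SOR+ array and by 0.20 without the Cspg4- Sdc4- array.

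Among the 12 E2F, MYB and DREAM genes 9 were higher in CD1 (median 0.38) and 8 lower on the Sdc4+ arrays (median -0.10). Mybl2, which encodes B-MYB, and E2f7, a repressor that is itself an E2F target, differed by 1.17 and 1.04 between the lines, and by -0.75 and -1.01 in Sdc4+ minus Sdc4-. E2f8 and E2f2 differed by -1.39 and -0.60 in Sdc4+ minus Sdc4- (limma adjusted p = 0.512 and 0.507). Without the B195AP+ array Mybl2, E2f7 and E2f8 differed by -0.33, -0.66 and -0.91, and Mybl2 by -0.47 without the Cspg4- Sdc4+ and by -1.24 without the Cspg4- Sdc4- array. Of 16 CDK inhibitors and genes of quiescence 6 were higher and 10 lower in CD1 (median -0.12), with medians of -0.39 in the Sdc4+ and 0.13 in the Sdc4- fraction. In Sdc4+ minus Sdc4-, 11 were higher and 5 lower (median 0.20). Cdkn2a and Cdkn2b, the neighbours that encode p16, p19Arf and p15, differed by -0.79 and -0.65 between the lines, CD1 being lower (limma adjusted p = 0.208 and 0.242). Cdkn2a was at 5.30, 3.51 and 4.42 on the Sdc4+ arrays, against 4.24, 3.45 and 4.12 on the Sdc4- arrays, and at 3.96 on the Cspg4+ array. Its lowest values stood on both CD1 arrays and its highest on the Myf5SOR+ array. Cdkn1b and Cdkn2c differed by -0.56 and -0.58 between the lines, Cdkn1c by -0.27, Cdkn1a by -0.10 and Cdkn2d by 0.37. In Sdc4+ minus Sdc4-, Cdkn1c, p57, and Cdkn2d differed by -0.89 and -0.78, Cdkn1b by -0.48, and Gas1 and Btg2, growth arrest genes, by 1.11 and 0.64 (limma adjusted p = 0.464 to 0.601). Cdkn1a, p21, Cdkn2a, Cdkn2b and Cdkn2c differed by 0.23, 0.47, 0.24 and 0.10. These rest on single arrays: Cdkn2a differed by 0.022 without the Myf5SOR+, 0.92 without the CD1 Sdc4+ and 0.23 without the CD1 Sdc4- array, and Gas1 by 0.62 without the Myf5SOR+ array. Cdkn1b differed by -0.30 without the CD1 Sdc4+ array, and Cdkn1a by 0.14 without the B195AP+ and 0.15 without the Cspg4- Sdc4+ array. Leaving out 1 array moved Cdkn2b between 0.11 (without CD1 Sdc4-) and 0.46 (without CD1 Sdc4+), and the sign of Cdkn2c turned without the Myf5SOR+ or the CD1 Sdc4- array. The p53 targets had medians of 0.09 between the lines and 0.32 between the fractions over 11 genes, with Trp53inp1, Fas, Mdm2 and Zmat3 at 0.56, 0.59, 0.39 and 0.32 in Sdc4+ minus Sdc4- (limma adjusted p = 0.614 to 0.712). Trp53inp1 and Mdm2 differed by 0.31 and 0.21 without the Cspg4- Sdc4+ array, Mdm2 by 0.59 without the Myf5SOR+ array, and Zmat3 by 0.15 without the Cspg4- Sdc4- array. Fas differed by 0.28 without the B195AP+, 0.34 without the CD1 Sdc4+ and 0.91 without the CD1 Sdc4- array.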

How the data were processed

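RNA of 7 mouse cell populations was hybridised to 7 arrays of 1 colour (Agilent mouse design, probe positions on mm9). The deposited intensity of each spot was, per the file headers, background-subtracted and spatially detrended by Agilent Feature Extraction, with no scaling between arrays. The deposited table of log2 values from the authors, with column medians that nearly match, served as an alternative. The submitters' processing notes name lumi with no version, and how the table was scaled, and from what, is unknown.

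Here, log2 intensity minus the 75th percentile of the array was averaged over spots of a probe, leaving out control spots and outlier spots. Probes marked as well above background on 3 or more of the 7 arrays were kept, and a gene took the brightest of them. Of 55681 probes, 27656 matched RefSeq (GRCm38.p6) by accession, and others kept the names in the files. limma 3.58.1 (R 4.3.3, Python 3.11.15) with Benjamini-Hochberg adjustment compared the Sdc4+, Sdc4- and Cspg4+ groups in 1 fit over all 7 arrays. A second fit, of line plus fraction, used the 4 CD1 and Cspg4- arrays. Differences between single arrays have no replicate and no test. They were counted past 1.5-fold. The number of arrays limits the precision. Groups came from the sample titles, where every replicate is numbered 1, so no number pairs the arrays.

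The scripts were tested on simulated data. Values on every array were set down, by rule, for main regulators, the largest and smallest differences of each class and contrast, and genes whose probes disagree, with ranges for the rest. From the other lists the genes of smallest p and the CDK inhibitors were named. Bub1 was chosen for its repeat spots. The members and lists were chosen with earlier results of these data known. Alternatives were another background correction, quantile scaling, the deposited table, other filters, a mean over probes, leaving out the streaked region or an array, array weights and the line as a block.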

Additional observations from a re-analysis of the deposited data

Results flagged for a closer look

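The Sdc4+ minus Sdc4- difference took opposite signs in CD1 and in the Cspg4-cre line for 5 of the 32 members (15.6%), against 41.8% of all genes. Each line has 1 array per fraction, so the difference between the lines was not tested. In log2 units, Mcm2 differed by 0.19 in CD1 and -0.083 in the Cspg4-cre line, Mcm3 by 0.010 and -0.12, Mcm4 by 0.24 and -0.091, and Tyms by 0.10 and -0.068. All these are under 1.5-fold. Cenpf differed by -0.071 in CD1 and 1.72 in the Cspg4-cre line. In the Cspg4-cre line its Sdc4- spot was not well above background, which gives Sdc4+ cells at least 2.32-fold more.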

How the results depend on the processing

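No member passed limma in Sdc4+ minus Sdc4- under any of 19 alternatives (smallest member adjusted p 0.213 to 0.951), and 3 genes that are not members passed with line as a random block (consensus correlation 0.579). No replicate number pairs the arrays, since the labels number every replicate 1, but CD1 and the Cspg4-cre line occur in both fractions. With line as a fixed block for that pairing, the Sdc4 median was -0.056 for the S-phase and -0.31 for the mitotic members, and 0 genes passed. Leaving out 1 array moved the Sdc4 median of S-phase members between -0.67 and -0.06 and that of mitotic members between -1.20 and -0.51, both below 0 throughout. Between the lines, 14 genes passed in the reported fit, 32 with normexp and quantile scaling, 50 in the deposited table, 90 with no filter, 329 with probes well above background on all 7 arrays, 8 with a mean over probes and 108 with no term for the fraction. Members passed in 1 of the 7 alternatives, 6 of them with that stricter filter, and the smallest member adjusted p ran from 0.0201 to 0.157. The mitotic median was 0.96 with normexp and 0.95 in the deposited table, and the S-phase median 0.74 with a mean over probes. For Cspg4+ cells 11 genes passed in the deposited table and 2952 with no filter, 0 of them members. Some Sdc4 differences of single genes turned sign, and the cause was not tested. Plk1 was at -0.11 with normexp, -0.017 with quantile scaling, and -0.39 without the streaked region, which drops its B195AP+ value. It was at -0.21 with line as a fixed block or without the Myf5SOR+ and B195AP+ arrays, -0.087 with the random block and -0.48 with array weights. With the fixed block, or without those arrays, Mcm5 was at 0.16 and Mcm4 at 0.076. Cdc6 was at -0.066 with a mean over probes and -0.020 with array weights, and Cenpf, with readings at background, at -0.027 with normexp. Leaving out 1 array gave Plk1 -0.39 to 0.54, Mcm5 -0.74 to 0.18, Mcm4 -0.48 to 0.10, Cdc6 -0.064 to 0.42, Cenpf -0.50 to 0.50 and Cdkn2c -0.086 to 0.35. Leaving out an array of the 4 in the line fit leaves no residual degree of freedom, so the differences within each fraction stand in its place. Low signal limits Cenpf, Cdc7 and Aurkb, which were near background.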
